A study of Mus musculus with 8 samples.

Results

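The clustered protocadherins are the protein-coding genes on mouse chromosome 18 whose GENCODE M21 symbols begin with Pcdha, Pcdhb or Pcdhg. There were 57 of them among the 55536 genes of the count table, 22028 of which are protein-coding. The Pcdha cluster held 14 members, the Pcdhb cluster 22 and the Pcdhg cluster 21. Pcdhgb8, which this annotation calls a polymorphic pseudogene, was left out by that rule. All members but 1 carried the symbol that RefSeq places at the same start, and the exception, ENSMUSG00000007440, is called Pcdha10 here after RefSeq.

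HAR123-KO mice carry a CRISPR-Cas9 deletion of the mouse counterpart of HAR123, an enhancer within an intron of Smg6, and were compared with WT mice to find genes whose expression depends on it. Frontal cortex RNA from 4 WT and 4 HAR123-KO samples was depleted of ribosomal RNA and sequenced. All samples came from mice aged 8 weeks, WT animals were littermates, and both genotypes were on a C57BL/6J background by repeated backcrossing. No Cre or cell type restricted the deletion, and the labels give neither sex nor whether tissue was pooled.

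Clustered protocadherins are cell adhesion proteins of the cadherin superfamily that sit on the surface of neurons and some other brain cells. Each neuron switches on a small, largely random set of promoters from the clusters, and the resulting mix of proteins binds only to a matching mix on another membrane, which lets sister branches of the same neuron recognise and avoid each other. Within the Pcdha and Pcdhg clusters, each member has a variable first exon of its own, coding for the extracellular part, that is spliced to constant exons coding for a shared cytoplasmic tail. The last members of these clusters, the C-type isoforms, are used more uniformly across neurons than the alternate isoforms. Pcdhb genes have no constant exons.

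The 3 clusters lie in tandem on the plus strand of GRCm38 chromosome 18. The Pcdha cluster ran from 36930184 to 37187661 (257 kb), the Pcdhb cluster from 37264938 to 37524479 (260 kb) and the Pcdhg cluster from 37661793 to 37841873 (180.1 kb). In the annotation, 2860 exon bases belonged to all 14 Pcdha members and 2116 exon bases to all 21 Pcdhg members. No exon base was common to all Pcdhb members, and the only sharing among them was 455 bases common to Pcdhb21 and Pcdhb22. Exon bases found in no other gene of the same strand made up a median of 46.4% of a Pcdha member, 100% of a Pcdhb member and 55.4% of a Pcdhg member.

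**Figure D1:**
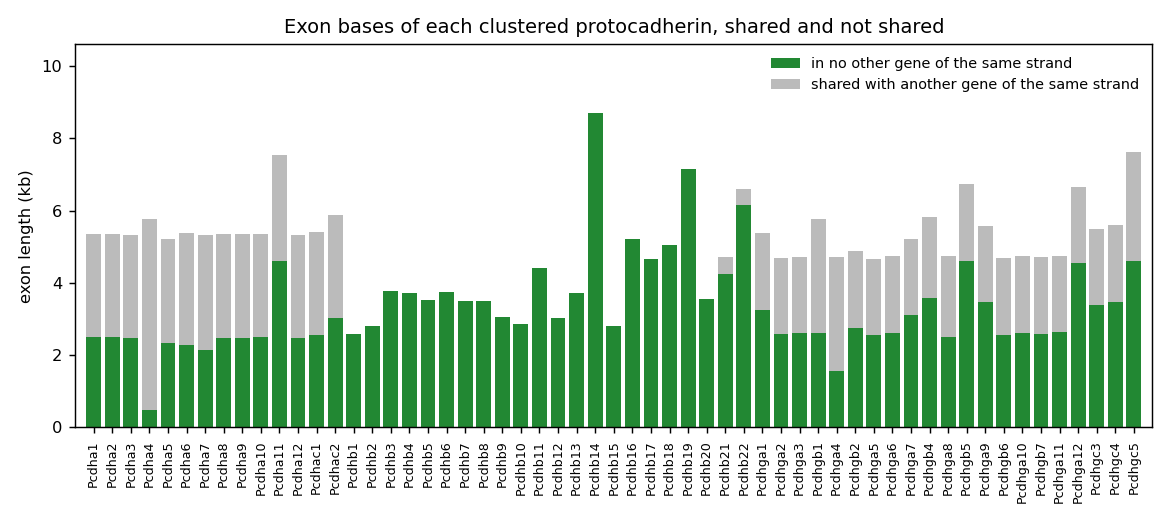
Exon length in kb of each of the 57 members in genomic order, split into bases found in no other gene of the same strand (green) and bases shared with another gene (grey). Every Pcdha and Pcdhg bar has a shared portion, while among Pcdhb bars only those of Pcdhb21 and Pcdhb22 have one.

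How reads in shared exons were counted decides what a member's count means, and a pair of members shows it. Pcdha4 shares its constant exons with the other Pcdha members, and 2410 further bases, most of its variable exon, are annotated also to the read-through gene Gm42416. Only 494 of its 5768 exon bases were its own. Its raw counts in the WT libraries were 2, 0, 5 and 2, and in the HAR123-KO libraries 2, 0, 2 and 0. Gm42416 itself had 0 counts in all 8 libraries. Reads in the constant exons were therefore not added to every member that holds them, and a member's count is read here as coming mainly from the exon bases it shares with no other gene. Pcdhga10 shows the handling of strand. All of its 2613 bases that are free of other genes on its own strand are covered on the opposite strand by Gm26672, and it had 43 to 66 raw counts per library, so overlap with an antisense gene did not remove its reads. Levels are therefore given as normalized counts, which are counts divided by the DESeq2 size factor of the library, per kb of exon found in no other gene of the same strand. Similar sequence between members was a smaller matter. A stretch of 100 bases, the read length, was repeated elsewhere in the clusters in more than 5% of the positions of 8 members, counted over the exon bases of 56 members that no gene of either strand shares, at most 9.80% in Pcdhgb2, and the median member had none.

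The total count per library was 13528251 to 17051001, of which 2786320 to 3732172 fell on nuclear protein-coding genes. The 57 members held 2790 to 3842 raw counts per library, or 0.1001% to 0.1045% of that protein-coding count. Samples of the same genotype differed more than sampling noise, since a chi-square test of their counts gave a statistic of 1.21 to 1.30 times its degrees of freedom in the 12 pairs. The ratio was 1.58 to 1.72 in the 16 pairs of different genotype. Smg6 averaged 209 ± 7.78 normalized counts in WT against 218 ± 15.4 in HAR123-KO (SD, n = 4), but the deleted element is intronic, so its exon counts do not report the deletion.

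Markers of frontal cortex cells were present in every library, and none of the 49 markers in 7 lists was at 0 throughout. Neuron markers summed to 18181 to 18757 normalized counts in WT and 18087 to 18457 in HAR123-KO, so the sums overlapped, with 0 of 8 past the threshold defined below. Among them Stmn2 was lower in every HAR123-KO library than in any WT one, with a log2 fold change of -0.16 ± 0.05 (DESeq2 adjusted p = 0.0572), and Nefm had -0.13 ± 0.05 with overlapping groups. Astrocyte markers summed to 22982 to 23705 and 21365 to 21973 with 0 of 7 past it, oligodendrocyte markers to 14434 to 15022 and 16515 to 16844 with 0 of 6, and endothelial markers to 266 to 286 and 214 to 222 with 0 of 6. None of these groups overlapped. Microglia markers summed to 882 to 958 and 855 to 912. Choroid plexus markers, led by Ttr, summed to 87.8 to 97.3 in WT and 710 to 753 in HAR123-KO, with both markers that had an adjusted p past the threshold. Striatal neuron markers summed to 2760 to 2897 and 3877 to 3991, with 3 of 8 past it. In bulk tissue, fewer cells of a type and less RNA per cell cannot be told apart, and the part of these marker differences in the protocadherin values was not tested.

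The median level was 12.8 normalized counts per kb in the Pcdha cluster, 8.55 in the Pcdhb cluster and 20.4 in the Pcdhg cluster. Per kb of whole exon length, constant exons included, the Pcdha median was 5.70 and the Pcdhg median 11.4, which puts Pcdha below the unmoved Pcdhb median. The median over all 57 members was 13.2, beside 17.9 over 12 protocadherins that lie outside the clusters. In the summed level of each WT library, Pcdhg members made up 58.1% ± 0.419, Pcdha members 21.4% ± 0.592 and Pcdhb members 20.5% ± 0.327 (SD, n = 4). The HAR123-KO shares were 58.1% ± 0.784, 20.7% ± 0.804 and 21.1% ± 0.666, and the libraries of the genotypes overlapped for each cluster.

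**Figure D2:**
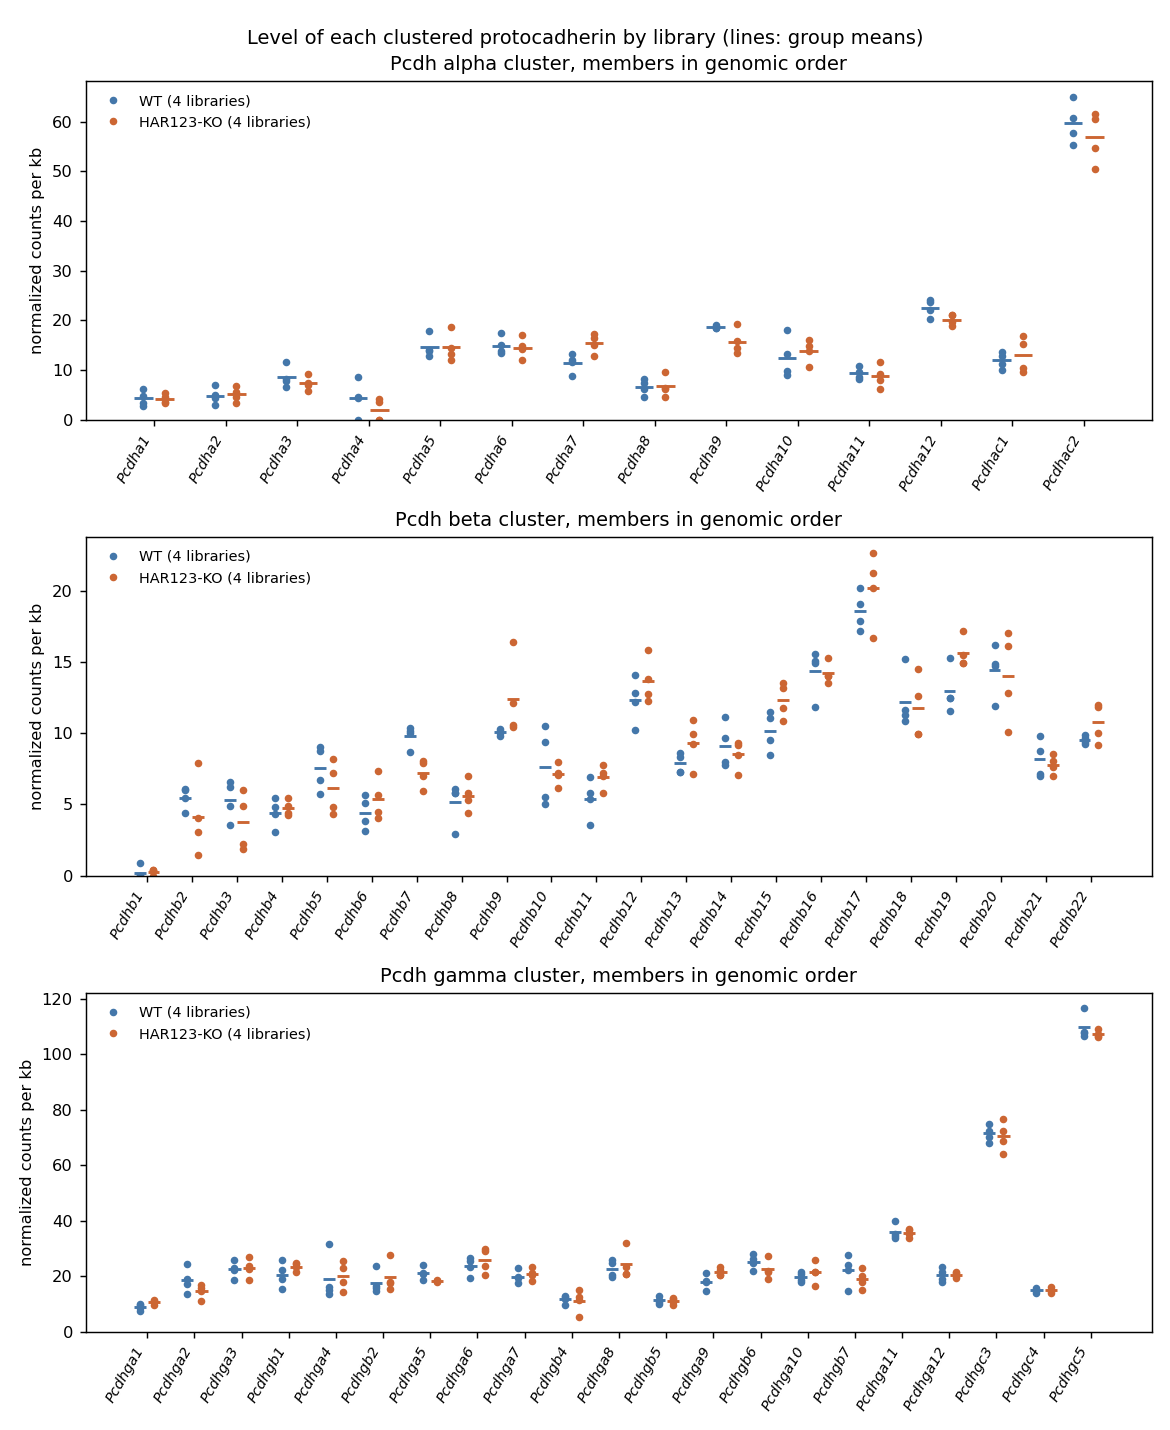
Level of each member in normalized counts per kb of own exon, in genomic order within the Pcdha, Pcdhb and Pcdhg clusters, with 1 point per library (blue WT, orange HAR123-KO, 4 each) and lines at the group means; the vertical scales differ. Pcdhgc5 at 108.5, Pcdhgc3 at 71.0 and Pcdhac2 at 58.3 stand above all others by this length, and Pcdhb levels are lowest at the 5′ end of their cluster and highest at Pcdhb17.

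C-type isoforms headed the order of levels. Pcdhgc5, the last gene of its cluster, had the highest level at 109.7 ± 4.64 normalized counts per kb in WT and 107 ± 1.30 in HAR123-KO. Pcdhgc3, which is known to promote dendrite branching through the Wnt pathway protein Axin1, followed at 71.5 ± 2.91 and 70.4 ± 5.29. Pcdhac2, which serotonergic axons need to spread evenly over their targets, came next at 59.7 ± 4.14 and 56.8 ± 5.13. These ranked above 89.5%, 82.2% and 77.8% of the 11503 protein-coding genes with an adjusted p, by level per kb. Pcdhgc5 did not overlap Pcdhgc3 in any library, whereas Pcdhgc3, at 64.1 to 76.5 over the 8 libraries, and Pcdhac2, at 50.6 to 64.9, met at the edge of their ranges. The remaining pair of C-type isoforms lay within the range of the alternate ones. Pcdhac1 had 12.5 normalized counts per kb and Pcdhgc4, which is known to keep interneurons alive during development, had 14.9, over all libraries. The order depended on the length used. Per kb of exon free of genes on either strand, as first planned, Pcdhgc3 was first at 131.7 normalized counts per kb, above Pcdhgc5 at 108.5, and Pcdhga11 at 75.0 passed Pcdhac2 at 58.3. By that length Pcdhb12 at 35.7 and Pcdha11 at 32.7 also passed Pcdhb17 and Pcdha12. C-type isoforms made up 35.1% ± 1.59 of the Pcdha level in WT and 35.2% ± 1.73 in HAR123-KO, and 35.4% ± 0.979 and 34.7% ± 1.29 of the Pcdhg level.

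Among alternate isoforms the order was seldom resolved. The highest was Pcdhga11 at 35.7 normalized counts per kb, and its range over the libraries, 33.7 to 39.8, lay above that of the next, Pcdhga6, at 19.4 to 29.6. In the order of all 57 members, only 3 of 56 neighbouring pairs had ranges over the 8 libraries that did not overlap. Within clusters the number was 1 of 13 in Pcdha, 2 of 21 in Pcdhb and 3 of 20 in Pcdhg. The interleaved Pcdhga and Pcdhgb subfamilies had mean levels of 20.8 ± 0.772 and 18.1 ± 2.20 normalized counts per kb in WT, and 21.3 ± 1.21 and 17.8 ± 1.959 in HAR123-KO. The highest Pcdha alternate isoform was Pcdha12 at 21.3, and the highest Pcdhb member was Pcdhb17 at 19.4. The lowest Pcdhg member was Pcdhga1 at 9.70. Pcdhb1 was nearly silent, with raw counts of 2, 0, 0 and 0 in WT and 0, 1, 1 and 1 in HAR123-KO, all under a floor of 3 counts per library, so no fold is given.

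Levels tended to be lower at the 5′ end of each cluster. Across genes, Spearman's rho between start position and level per kb was 0.79 over the 22 Pcdhb members, 0.65 over the 14 Pcdha members and 0.42 over the 21 Pcdhg members. Without the C-type isoforms it was 0.64 over 12 Pcdha members and 0.40 over 18 Pcdhg members. These are descriptions, since all members were measured in the same 8 libraries and neighbouring genes are not independent. The Pcdhb order ran from 0.249 normalized counts per kb at Pcdhb1, the first gene, through 4.53 at Pcdhb3 to 8.52 at Pcdhb7. The climb was uneven, with 5.40 at Pcdhb8, 11.2 at Pcdhb9, 6.17 at Pcdhb11 and 13.0 at Pcdhb12. Levels reached 14.3 at Pcdhb16, 19.4 at Pcdhb17 and 14.3 at Pcdhb19, and then went down to 7.98 at Pcdhb21 and 10.1 at Pcdhb22.

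The spread between samples of a genotype is given relative to counting error. The variance of normalized counts within genotypes divided by their mean, which is about 1 when only counting error is present, had a median of 1.03 over the 49 members with an adjusted p. It ran from 0.136 in Pcdhgc4 to 3.81 in Pcdhga4, with Pcdhgb2 at 3.45 and Pcdhgb4 at 2.97. At these low counts the ratio is near 1 also where samples differ modestly.

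The comparison of HAR123-KO with WT asked whether loss of the enhancer was accompanied by a change in any member. None was past the threshold, which asks DESeq2 for an adjusted p under 0.05 together with a log2 fold change beyond 0.5 in either direction. This held for 0 of the 49 members to which DESeq2 gave an adjusted p, against 0.298% of the 12758 genes tested. The lowest adjusted p was 0.484. At an unadjusted p under 0.05, 1 member passed in DESeq2 (2.04%, against 8.78% of all genes). In edgeR 4 of 55 members passed (7.27%, against 12.8% of 14503 genes) and in limma-voom 3 of 55 (5.45%, against 12.7%). Neither tool put any member past the threshold. The 8 members without an adjusted p were Pcdha1, Pcdha2, Pcdha4, Pcdha8, Pcdhb1, Pcdhb2, Pcdhb3 and Pcdhb4, all at means below the 17.6 normalized counts at which the filter on low values stopped.

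**Figure D3:**
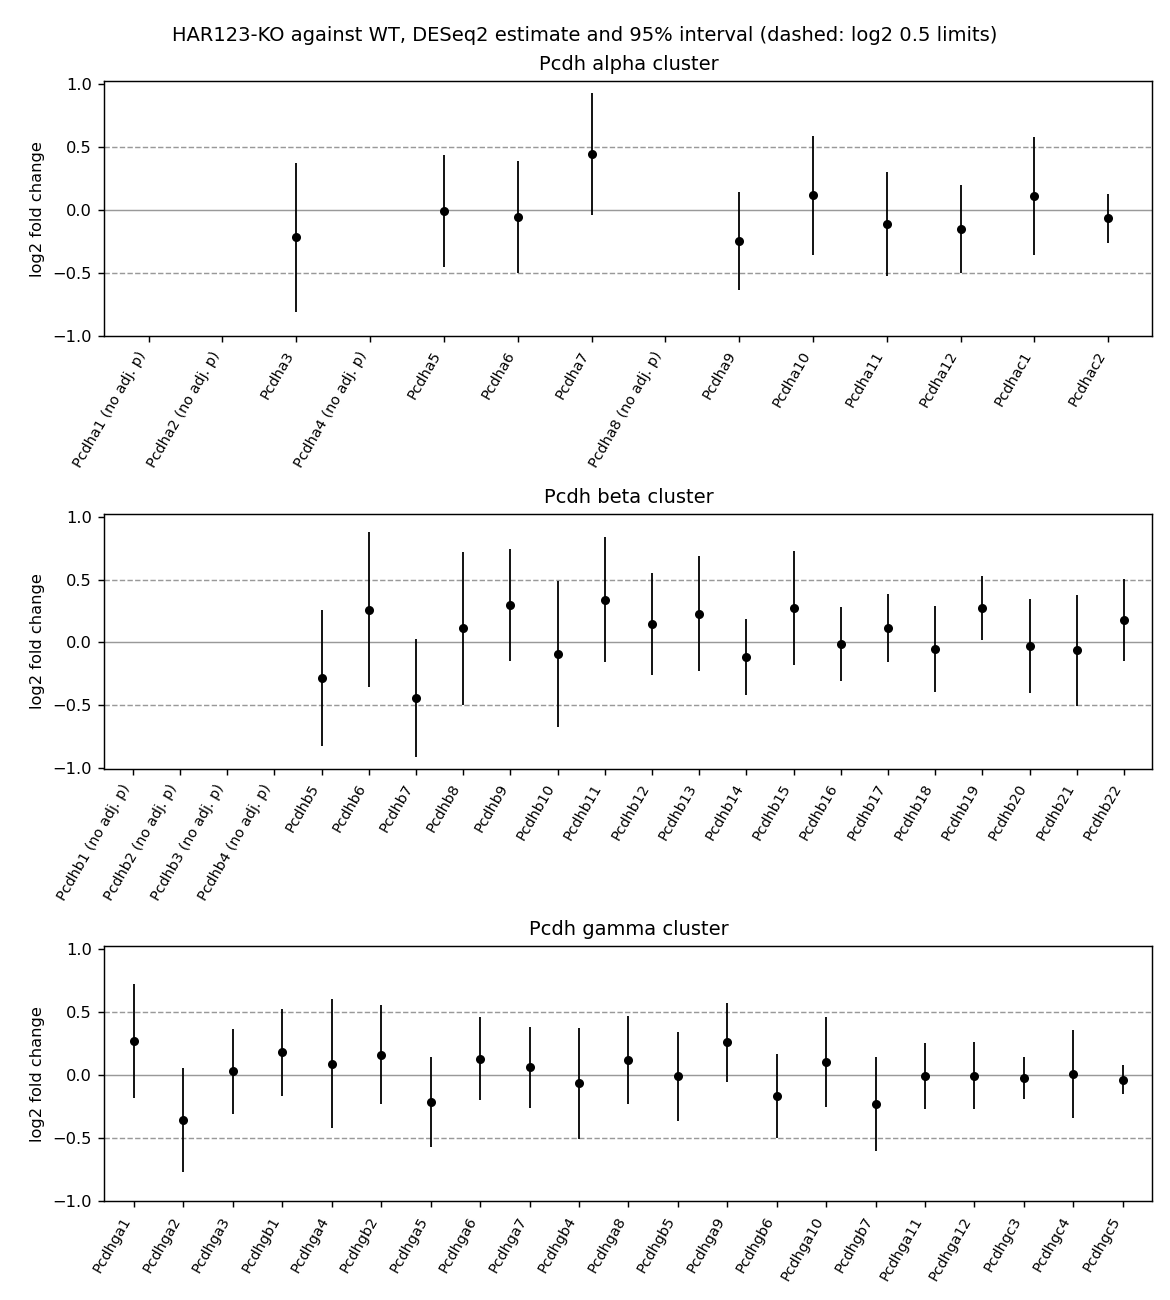
Log2 fold change of HAR123-KO against WT for each member in genomic order, as the DESeq2 estimate (point) with its 95% interval (line); members marked "no adj. p" were below the filter on low values and are not drawn. The 49 estimates run from -0.44 (Pcdhb7) to 0.45 (Pcdha7), inside the dashed lines at 0.5, and every interval but that of Pcdhb19 includes 0.

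The estimates lay evenly around 0. Mean normalized counts were higher in HAR123-KO for 29 of the 57 members and lower for 28. The median log2 fold change was -0.006 over the 49 members with an adjusted p and -0.002 over all 12758 genes. Their median standard error was 0.19. The 95% interval of the log2 fold change lay between -1 and 1 for all 49 members, and between -0.5 and 0.5 for 20 of them. For the other 29 the interval reached past 0.5 in at least 1 direction, so a difference of that size was not excluded there, and a p above the threshold does not show that a member was the same in both genotypes.

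Among the C-type isoforms, Pcdhgc5, Pcdhgc3 and Pcdhac2 had the narrowest intervals of all members. Pcdhgc5 had 491, 497, 537 and 496 normalized counts in the WT libraries and 489, 491, 503 and 495 in the HAR123-KO libraries. The groups overlapped, WT replicate 3 was the highest of all, and the log2 fold change was -0.04 ± 0.06 (SE) with a 95% interval of -0.15 to 0.08. Pcdhgc3 had 253, 245, 230 and 237 normalized counts in WT and 232, 259, 217 and 245 in HAR123-KO. The groups overlapped fully, with a log2 fold change of -0.02 ± 0.09. Pcdhac2 had 175, 197, 168 and 184 normalized counts in WT and 186, 153, 183 and 166 in HAR123-KO. Its groups also overlapped, and its log2 fold change was -0.07 ± 0.10. Pcdhgc4 had 54.0, 48.4, 52.5 and 51.3 normalized counts in WT and 52.2, 48.5, 55.5 and 51.0 in HAR123-KO, a log2 fold change of 0.01 ± 0.18. Pcdhac1 had 34.9, 25.7, 33.0 and 28.9 in WT and 43.0, 39.0, 26.4 and 24.5 in HAR123-KO, where 2 libraries lay above all WT ones and 1 below them. The DESeq2 adjusted p of these 5 isoforms was 0.958 to 0.998.

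In the Pcdha cluster, whose alternate isoforms signal through the kinase Fyn and the WAVE complex by their shared tail, the highest estimate among members with an adjusted p was for Pcdha7. It had 28.1, 24.7, 18.6 and 25.7 normalized counts in WT and 36.9, 32.3, 27.3 and 35.1 in HAR123-KO. A single HAR123-KO library fell below the highest WT library, and the log2 fold change was 0.45 ± 0.25 (DESeq2 adjusted p = 0.628). Pcdha9 had the lowest estimate among Pcdha members with an adjusted p, with 47.3, 46.3, 45.8 and 46.0 normalized counts in WT and 35.8, 47.5, 33.5 and 39.3 in HAR123-KO. Its WT libraries were close together, HAR123-KO replicate 2 lay above them all, and the log2 fold change was -0.25 ± 0.20. Pcdha12, the highest alternate isoform of the cluster, had 58.5, 59.7, 49.99 and 54.6 normalized counts in WT and 52.2, 46.6, 51.9 and 48.9 in HAR123-KO. These overlapped. Pcdha11 had 39.4, 38.1, 49.99 and 43.9 normalized counts in WT and 42.0, 37.1, 28.2 and 53.2 in HAR123-KO, the widest spread of these, with overlapping groups. Its sense strand is also covered by the pseudogene Gm18150 over 69 bases and its opposite strand by Gm10545 over 2486 bases. The 10 Pcdha members with an adjusted p had log2 fold changes of -0.25 to 0.45 with a median of -0.06.

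In the Pcdhb cluster, whose members lack the shared tail, Pcdhb19, Pcdhb7 and Pcdhb9 are given first. The unadjusted DESeq2 p of Pcdhb7 was 0.064, near the 0.072 of Pcdha7 and the 0.090 of Pcdhga2. That of Pcdhb9, at 0.19, was higher than these. Pcdhb19 had 88.9, 82.4, 89.0 and 109 normalized counts in WT and 111, 106, 122 and 106 in HAR123-KO. WT replicate 4 lay among the HAR123-KO libraries and the other 3 below them, and the log2 fold change was 0.28 ± 0.13 (DESeq2 adjusted p = 0.484). In DESeq2 it was the only member with an unadjusted p under 0.05. Pcdhb7 had 30.4, 35.0, 35.6 and 36.4 normalized counts in WT and 27.6, 20.9, 28.2 and 24.5 in HAR123-KO. All 4 HAR123-KO libraries were lower than all WT ones, with a log2 fold change of -0.44 ± 0.24 (DESeq2 adjusted p = 0.612). Pcdhb9, singled out after its values were seen, had 31.5, 29.9, 30.5 and 31.0 normalized counts in WT and 50.2, 32.3, 37.0 and 31.9 in HAR123-KO. Here all HAR123-KO libraries were higher, but by under 1 normalized count for the lowest, and the log2 fold change was 0.30 ± 0.23 (DESeq2 adjusted p = 0.814). Pcdhb7 and Pcdhb9 were the only members whose groups did not overlap. That is 1 of 49 in each direction (2.04%), against 4.02% of all genes tested with HAR123-KO higher and 3.65% with HAR123-KO lower. Shares that rest on 1 member in each direction are too coarse to rank against those of all genes. With library totals as the scale the members were 3 higher (6.12%) and 1 lower (2.04%), against 5.85% and 1.87% of all genes.

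The other Pcdhb members of high or extreme values overlapped. Pcdhb17 had 79.9, 83.4, 94.0 and 88.8 normalized counts in WT and 77.8, 106, 94.2 and 98.9 in HAR123-KO, with 3 HAR123-KO libraries above all of WT, 1 of them barely, and 1 below. Pcdhb16 had 78.8, 61.8, 78.0 and 81.3 in WT and 70.6, 79.9, 73.1 and 73.4 in HAR123-KO, the latter all within the WT range. Pcdhb12 had 42.8, 37.1, 39.0 and 31.0 in WT and 48.1, 41.8, 38.7 and 37.2 in HAR123-KO. Its fold change of 0.15 ± 0.21 on the log2 scale was smaller than its error. Pcdhb11 had the highest estimate among Pcdhb members with an adjusted p, with 15.8, 23.7, 30.5 and 25.7 normalized counts in WT and 31.7, 25.7, 34.3 and 30.8 in HAR123-KO. The groups overlapped and the log2 fold change was 0.34 ± 0.26, or 0.20 without WT replicate 1, the lowest library. Over the 18 Pcdhb members with an adjusted p the median log2 fold change was 0.11.

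Loss of the Pcdhg cluster is known to cause death of spinal interneurons and collapse of dendritic self-avoidance. In this cluster the highest and lowest estimates were those of Pcdhga1 and Pcdhga2. Pcdhga1 had 32.6, 30.9, 27.1 and 23.5 normalized counts in WT and 35.8, 37.1, 30.8 and 34.0 in HAR123-KO. A single HAR123-KO library lay within the WT range, and the log2 fold change was 0.27 ± 0.23. Its neighbour Pcdhga2 went the other way, with 63.0, 35.0, 49.1 and 43.9 normalized counts in WT and 43.0, 38.0, 28.2 and 40.4 in HAR123-KO. The groups overlapped, WT replicate 1 was the highest, and the log2 fold change was -0.36 ± 0.21 (DESeq2 adjusted p = 0.676). It was -0.20 without WT replicate 1 and -0.24 without HAR123-KO replicate 3. Pcdhga11 had 91.2, 92.7, 89.0 and 105 normalized counts in WT and 97.3, 89.4, 92.4 and 96.8 in HAR123-KO, the latter all inside the WT range. The 21 Pcdhg members had log2 fold changes of -0.36 to 0.27 with a median of 0.01. Pcdhgb8, the polymorphic pseudogene left out of the members, averaged 26.8 ± 6.03 normalized counts in WT against 24.4 ± 8.75 in HAR123-KO.

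Summing each cluster gave totals with a smaller counting error, which are described here with no test. The Pcdha sum was 521, 562, 547 and 540 normalized counts in the WT libraries and 567, 518, 507 and 519 in the HAR123-KO libraries. The means were 543 ± 16.9 and 528 ± 26.8, a log2 ratio of -0.04, and the highest library of all was a HAR123-KO one. The Pcdhb sum was 848, 844, 856 and 889 in WT and 889, 892, 890 and 900 in HAR123-KO. Its means were 859 ± 20.5 and 893 ± 4.92, a log2 ratio of 0.06 or a fold of 1.04, and only WT replicate 4 reached the HAR123-KO range. The Pcdhg sum was 1772, 1780.0, 1853 and 1857 in WT and 1828, 1840, 1836 and 1762 in HAR123-KO. Its means were both 1816, with SDs of 45.8 and 36.5. Over all 57 members the sum was 3217 ± 65.8 in WT and 3237 ± 42.8 in HAR123-KO, a fold of 1.01. The size of the Pcdhb difference depended on the scaling, and with library totals as the scale its log2 ratio was 0.09.

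**Figure D4:**
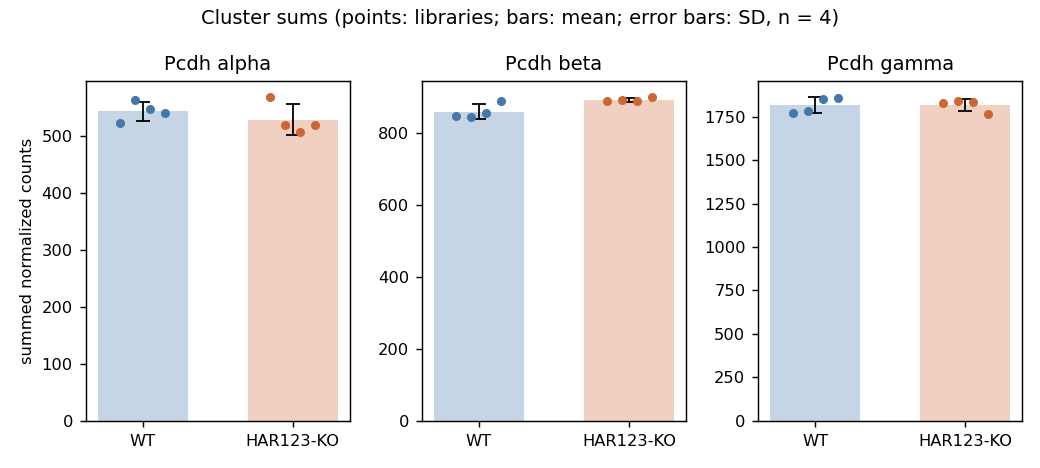
Summed normalized counts of each cluster in the 4 WT and 4 HAR123-KO libraries (points), with the mean as a bar from 0 and the SD as the error bar. Pcdha and Pcdhg sums overlap between genotypes, and in the Pcdhb panel a single WT point, at 889, reaches the HAR123-KO points at 889 to 900.

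Beyond the members, 4 lists were read from the same fit, of genes for promoter choice and silencing, signalling partners, protocadherins outside the clusters and other cadherins. DESeq2 gave an adjusted p to 73 of the 79 listed genes, and 0 were past the threshold there, in edgeR or in limma-voom, beside 7 with an unadjusted p under 0.05 in DESeq2, 10 in edgeR and 11 in limma-voom. These are 9.59%, 13.7% and 15.1% of the 73, near the 8.78%, 12.8% and 12.7% of all genes, so the genes named below by such a p are described by their values only.

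Promoter choice depends on loops that the DNA-binding protein CTCF and the cohesin ring, including Rad21, form between promoters and enhancers. Silencing of the promoters that are not chosen depends on DNA methylation and on Smchd1. Ctcf averaged 238 ± 21.8 normalized counts in WT against 240 ± 15.5 in HAR123-KO, a log2 fold change of 0.01 ± 0.09. Rad21 averaged 393 ± 18.1 and 384 ± 20.5, and Smchd1 averaged 260 ± 19.7 and 265 ± 10.7. All of these differed by less than the spread between libraries. Of the 22 genes of this list with an adjusted p, 1 had an unadjusted p under 0.05, the cohesin release factor Wapl, with a log2 fold change of 0.16 ± 0.08. Dnmt3b, the methyltransferase that marks Pcdh promoters in the embryo, was too low for an adjusted p.

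Among 24 signalling partners with an adjusted p, 3 had an unadjusted p under 0.05. Ptk2b, the kinase Pyk2 that the Pcdha and Pcdhg tails bind and inhibit, had 1528, 1551, 1518 and 1533 normalized counts in WT and 1677, 1675, 1640 and 1596 in HAR123-KO. All HAR123-KO libraries were higher, and the log2 fold change was 0.10 ± 0.03 (DESeq2 adjusted p = 0.118). The others were the postsynaptic adhesion proteins Nlgn1, with a log2 fold change of 0.12 ± 0.06, and Nlgn3, with 0.16 ± 0.08.

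Relatives in the cadherin superfamily were listed separately. Of 11 protocadherins outside the clusters with an adjusted p, 2 had an unadjusted p under 0.05, namely Pcdh8, an activity-regulated protocadherin of synapses, with a log2 fold change of -0.33 ± 0.15, and Pcdh17, with 0.13 ± 0.06. Of 16 other cadherins with an adjusted p, 1 did. This was Cdh8, a cadherin of synapses in cortex and striatum, with 232, 233, 225 and 210 normalized counts in WT and 281, 257, 264 and 274 in HAR123-KO. Its groups did not overlap, and its log2 fold change of 0.26 ± 0.08 had a DESeq2 adjusted p of 0.0900. The striatal marker sums given above moved in the same direction as Cdh8, and their part in it was not tested. Median log2 fold changes were 0.05 for the other protocadherins, -0.01 for the other cadherins, 0.02 for genes of promoter choice and silencing, and 0.03 for signalling partners, beside -0.002 over all genes tested.

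**Figure D5:**
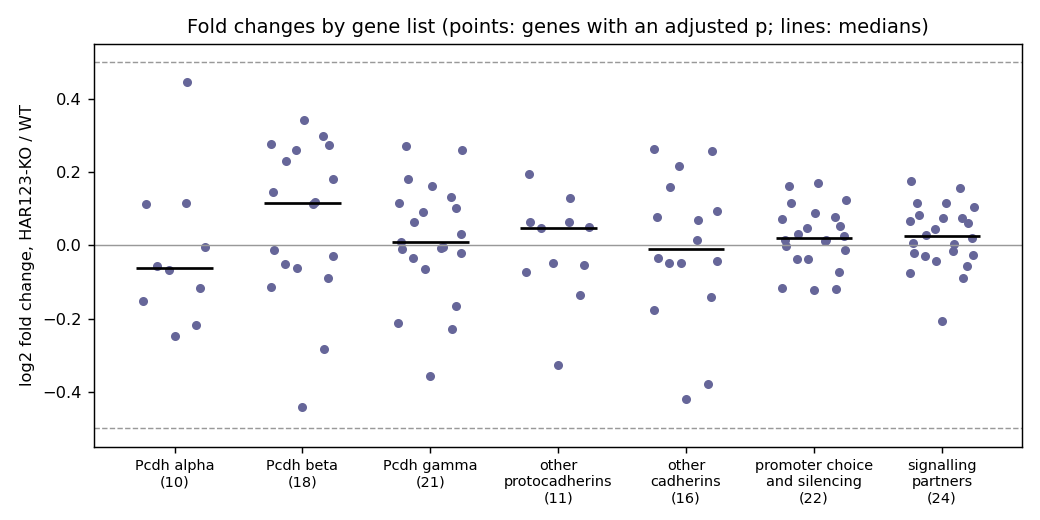
Log2 fold changes of HAR123-KO against WT (vertical axis) for genes with an adjusted p, by cluster and by list, with the number of genes in parentheses, 1 point per gene and a line at the median. All points lie within the dashed lines at -0.5 and 0.5.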

How the data were processed

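RNA from frontal cortex was sequenced from 4 WT and 4 HAR123-KO samples as stranded paired-end libraries. The deposited table holds raw counts per gene, which the authors made by aligning reads with STAR 2.5.2b to GRCm38 and counting them with featureCounts (Subread, version not given in the sources used here) over Ensembl version 96 genes. How reads in shared exons and strand were handled at counting is not given in the sources used here. All 55536 identifiers were found in GENCODE M21, with the same coordinates. Exon bases came from the exon coordinates in the deposited table, and their number per gene equalled the authors' length column. Samples were grouped by their titles, which do not say that tissue of separate animals was used, so p-values measure the spread between these samples only.

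All genes were fitted with DESeq2 1.42.0 in R 4.3.3 (median-of-ratios size factors, Wald test, genotype as the only term, Benjamini-Hochberg adjustment over genes kept by the independent filter at alpha 0.1). Genes without an adjusted p were left without one. Alternatives were edgeR 4.0.16 quasi-likelihood and limma-voom (limma 3.58.1) with TMM factors, TMM factors or library totals in DESeq2, at least 10 counts in 4 libraries, no independent filter, other thresholds, the replicate number as a block and each library left out in turn. The fitting code was tested on simulated data. Counting error is a lower limit of the error, since PCR copies were not marked.

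The members and gene lists were chosen with earlier results of these data known. Members named with values were the C-type isoforms; in each cluster the 3 highest and the lowest by level, and those with the largest rise and fall if their mean reached 20 normalized counts; and those with an unadjusted p under 0.05. Of the lists, genes with an unadjusted p under 0.01 and Ctcf, Smchd1 and Rad21 were named by rule; genes under 0.05, Dnmt3b and Pcdhb9 were added after their values were seen. Levels use exon bases free of other genes on the same strand. This was chosen after seeing the data in place of either strand, and members named by either length were kept. No sequences are reported here.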

Additional observations from a re-analysis of the deposited data

Results flagged for a closer look

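Among 46 sets of 4 libraries, 3 held a library far from the other 3 by Dixon's test at 95%, where chance gives about 1 in 20, or 2.3. The summed Pcdhg count was 1762 normalized counts in HAR123-KO replicate 4, where the rest of its genotype lay between 1828 and 1840. Pcdhgc5 had 537 normalized counts in WT replicate 3, against 491 to 497 in the other WT libraries. Pcdhb1 had 2.25 normalized counts in WT replicate 1, from 2 reads, and 0 in the other WT libraries.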

How the results depend on the processing

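No member and no listed gene was past the threshold under any alternative, and the fit with the replicate block also gave 0 members. The number of members with an unadjusted p under 0.05 ran from 0 to 4. The number with an adjusted p ran from 7 to 57, with 7 when HAR123-KO replicate 4 was left out, 18 when WT replicate 3 was, and 57 with no independent filter, because the filter on low values stopped elsewhere. Replicate numbers did not pair the samples: deviations from the group means of same-numbered libraries correlated at -0.027 to 0.029 over 9280 genes, and only replicate 3 correlated best with its own number. In 294 alternative fits of the 20 named members the sign differed in 18, and 12 members never changed sign. Library totals as the scale shifted the median log2 fold change of all genes by 0.04. They raised the members whose groups did not overlap to 4 (Pcdha7, Pcdhb7, Pcdhb9 and Pcdhga1), with 5.85% of all genes then higher and 1.87% lower without overlap, and moved the log2 ratio of the Pcdhb sum to 0.094 and of the Pcdhg sum to 0.040. The median of fitted log2 fold changes put the Pcdhb cluster at 0.10. Leaving out each library in turn gave log2 ratios of -0.08 to -0.02 for the Pcdha sum, 0.05 to 0.07 for Pcdhb and -0.01 to 0.01 for Pcdhg. Per kb of whole exon length, median levels were 5.70 for Pcdha, now below Pcdhb at 8.55, and 11.4 for Pcdhg, and with bases free on either strand 13.3 and 22.2. The 95% interval of 29 members reached beyond a log2 fold change of 0.5.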
